A study of Homo sapiens with 2 samples.

Results

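Microtubule motor, dynactin and tubulin genes were followed in cells of the human line MDA-MB-231, which derives from a triple-negative breast tumour. Both groups were grown in L15 medium with serum and differed in what was transfected: THAP7-AS1 Smart Silencer, a reagent aimed at that long noncoding RNA, or the control Si-NC. The design text gives 48 h from transfection to sampling. There was 1 RNA-seq library per group, so no difference below has a replicate check and none was tested. The members were the genes whose symbols begin with KIF or KLC and a digit, or with DYNC, DYNLL, DYNLT, DCTN, TUBA, TUBB or TUBG. They numbered 70 of 12918 genes: 31 kinesin symbols, 4 kinesin light chains, 11 dynein subunits, 6 dynactin subunits and 18 tubulin and tubulin ring complex genes. One of the kinesin symbols, KIF1BP, encodes a kinesin-binding protein and not a motor. The prefixes leave out some motors, such as CENPE and KIFC1, which are given as genes outside the set.

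Values are FPKM, fragments scaled to transcript length and library size, summed over the listed transcripts of a gene. The ratio is log2((si-v + 1)/(control + 1)). The silencer library is the column headed si-v, assigned by elimination because the other column carries the name si-NC, and every direction below rests on that. The level of THAP7-AS1 was not analysed here, so the silencing itself was not checked. Low values gave an approximate depth of 7830000 fragments (si-NC) and 8320000 (si-v) over all transcripts in the table. Mitochondrially encoded genes took 11.996% of summed FPKM under si-NC and 6.93% under si-v. Scaling without them moved the median of all genes to -0.06 on the log2 scale and that of the mitotic kinesins, described below, to -0.40. Counting intervals (95%, Clopper-Pearson) come from these approximate fragments, without the pseudocount, and cover counting error only. The 5 markers taken as high in this line reached at least 83.7 FPKM in both libraries: VIM (344 and 373) and ANXA1 (265 and 273) were slightly higher under si-v, AXL (259 and 204), CD44 (152 and 114) and CAV1 (118 and 83.7) lower. Of those taken as low, ESR1 was listed at 0 in both and CDH1 stood at 0.0844 and 0.122. EPCAM, at 11.3 and 12.8, and ERBB2, at 4.65 and 17.4, were not low. Of 8 markers of other cell types 3 were among the listed genes, ALB at 17.0 and 17.7 and COL1A1 and PDGFRB at 1.14 FPKM or less.

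Kinesins are ATP-driven motors that mostly walk towards microtubule plus ends, and cytoplasmic dynein walks towards minus ends with the help of dynactin. A subset of kinesins builds and reshapes the mitotic spindle and the midzone of dividing cells, and their genes are transcribed mainly in late S phase to mitosis. Other kinesins and dynein carry vesicles, organelles and ciliary cargo throughout the cell cycle. Both run on polymers of alpha and beta tubulin that grow from rings of gamma tubulin, and human cells hold several genes for each tubulin.

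The promoters of the motors are shown first because the genes of the mitotic class often hold short motifs that the choice of members did not use. Many cell cycle genes carry a CCAAT box and, downstream of it near the start site, a cell cycle homology region (CHR), which is bound by the DREAM and MuvB complexes. Windows of 250 bases before to 50 after each RefSeq start site (GRCh38.p14) were searched on both strands for TTTGAA or TTCGAA, taken as CHR letters, and for CCAAT; the letters of these motifs do not overlap each other. The stretches below run 5' to 3' from 100 bases before to 10 after the start, with every match in capitals. KIF11, KIF14, KIF18A, KIF18B and KIF23 hold both motifs, the mitotic gene KIF20A holds CCAAT boxes alone, and the transport motors KIF1C and KIF3A hold neither. They lie at chr10:92593030-92593139 on the plus strand for KIF11, chr1:200620742-200620851 on the minus strand for KIF14, chr11:28108147-28108256 on the minus strand for KIF18A, chr17:44947764-44947873 on the minus strand for KIF18B, chr15:69414249-69414358 on the plus strand for KIF23, chr5:138179012-138179121 on the plus strand for KIF20A, chr17:4997850-4997959 on the plus strand for KIF1C, chr5:132737537-132737646 on the minus strand for KIF3A.
KIF11: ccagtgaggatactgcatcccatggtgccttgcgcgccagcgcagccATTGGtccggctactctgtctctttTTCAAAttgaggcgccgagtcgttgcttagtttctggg
KIF14: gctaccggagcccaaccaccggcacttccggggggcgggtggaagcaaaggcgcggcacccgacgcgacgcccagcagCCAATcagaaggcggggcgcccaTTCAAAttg
KIF18A: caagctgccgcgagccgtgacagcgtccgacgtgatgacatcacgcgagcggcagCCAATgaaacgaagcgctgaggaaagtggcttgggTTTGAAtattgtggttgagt
KIF18B: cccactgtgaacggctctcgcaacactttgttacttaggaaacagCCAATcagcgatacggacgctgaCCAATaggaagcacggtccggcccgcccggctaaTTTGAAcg
KIF23: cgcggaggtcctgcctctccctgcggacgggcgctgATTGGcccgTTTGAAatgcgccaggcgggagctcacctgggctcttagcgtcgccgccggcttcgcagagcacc
KIF20A: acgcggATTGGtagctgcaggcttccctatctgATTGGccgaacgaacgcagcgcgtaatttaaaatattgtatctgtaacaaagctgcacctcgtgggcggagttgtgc
KIF1C: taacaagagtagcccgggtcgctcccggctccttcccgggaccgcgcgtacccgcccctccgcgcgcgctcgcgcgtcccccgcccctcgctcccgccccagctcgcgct
KIF3A: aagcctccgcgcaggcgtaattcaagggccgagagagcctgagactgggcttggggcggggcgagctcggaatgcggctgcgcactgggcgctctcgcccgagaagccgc

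A CHR match was found in 9 of the 11 listed mitotic kinesins and a CCAAT match also in 9, with both in 8. Of the 10 listed transport kinesins with a window, 1 (KIF5B) held a CHR match and 4 a CCAAT match. Over all 35116 windows 16.4% held the CHR letters, 34.6% CCAAT and 6.38% both. Over the genes past the expression filter that had a window these shares were 15.4%, 43.9% and 6.54%. In KIF11, KIF14 and KIF4A the CHR began 23 to 25 bases after the first base of the nearest CCAAT box, and in KIF18A, KIF18B and KIF22 34 to 39 bases after it. The distance was 9 bases in KIF23, and 122 and 128 bases for the matches of KIF20B. KIF15 held the CHR letters without CCAAT, and KIF2C held neither. Of the spindle genes outside the prefixes, 6 of 10 held a CHR match. Among the other members CHR letters, each time with CCAAT as well, were found in KIF24 (1 of 6 other kinesins), TUBA1C (1 of 5 alpha tubulins) and TUBB3 and TUBB4B (2 of 6 beta tubulins). None were found in dynactin, gamma tubulin and ring complex, dynein or kinesin light chain windows. Such a match is a run of letters and not a shown binding site. Windows were found for 61 of the 70 members; KIF13B, KIF21B, KIF27, KLC2, KLC4, DYNLL2, DCTN6, TUBGCP4 and KIF1BP had none.

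**Figure D1:**
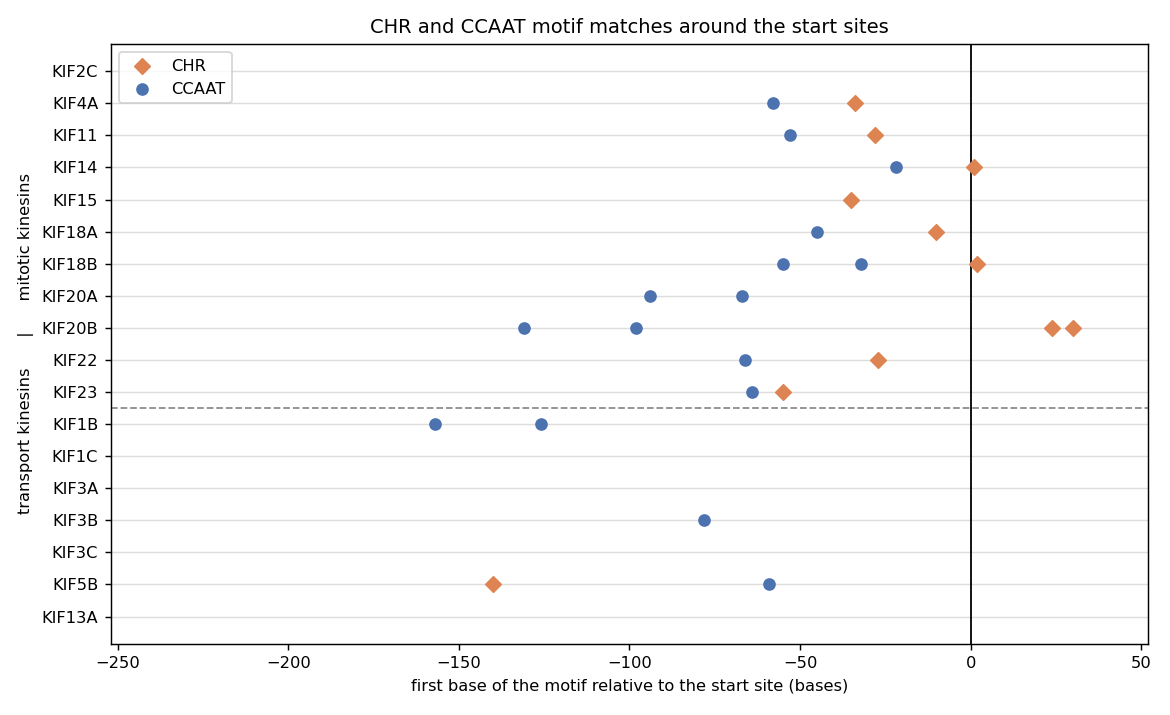
First base of each CHR (diamonds) and CCAAT (circles) match relative to the start site, in bases, for the 11 mitotic kinesins and the 7 transport kinesins that passed the expression filter and have a window, using 1 start site per gene. In 8 of the mitotic genes a CHR match lies downstream of a CCAAT match, whereas KIF5B is the transport motor with a CHR match.

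Among the members 63 reached 1 FPKM in at least 1 library, and 7 did not: KIF1A, KIF5C, KIF16B, KIF6, KIF21B, TUBA8 and TUBGCP6, whose higher value was at most 0.931. A gene such as TUBB2B passed only through the library where it was higher. Of the 63, 14 (22.2%) differed by 1.5-fold or more, against 18.7% of all 11046 genes past the filter. In the si-v library 6 were higher (9.52%, against 9.82% of all genes) and 8 lower (12.7%, against 8.91%). These shares lie near those of all genes. At 2-fold there were 3 members (4.76%, against 4.86% of all genes): TUBB3, TUBB2B and TUBA1B were lower (2.49% of all genes) and 0 were higher (2.37%). Small differences leaned to one side, since 42 of 63 members (66.7%) were lower under si-v by any amount, against 49.6% of all genes. The median log2 ratio of the members was -0.16, and that of all genes 0.00. The counting interval left out no change for 46 of the 63. The same share over all genes is not given here, so this count does not set the members apart. Nor does it say anything of the variation between cultures.

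Mitotic kinesins were lower under si-v for 10 of 11 listed genes, with a median log2 ratio of -0.33, but 1 of them reached 1.5-fold. That mitotic genes lie lower in this library was known when the class was drawn up, so the count is no independent evidence. In a bulk library fewer dividing cells and less RNA per cell cannot be told apart. The lowest ratio was that of KIF14, a motor of cytokinesis, at 31.1 FPKM under si-NC and 15.2 under si-v (log2 -0.99). The difference lay in 1 transcript, ENST00000614960.4, at 17.6 FPKM under si-NC and 0.0016 under si-v. The other transcript, ENST00000367350.4, stood at 13.5 and 15.2, and read from it alone the log2 ratio was 0.16. With approximate fragments added up over the transcripts, about 2399 under si-NC and 1311 under si-v, the log2 ratio of KIF14 was -0.96.

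KIF11, the plus-end motor that pushes spindle poles apart, has 1 listed transcript and stood at 52.9 FPKM under si-NC and 37.0 under si-v (log2 -0.50, counting interval -0.60 to -0.43). KIF15, which shares that task with KIF11, was the 1 higher member of the class, at 23.6 and 25.8 (0.12, and 0.57 from its most abundant transcript). KIF20A, which brings the chromosomal passenger complex to the midzone, stood at 46.6 and 32.1 (-0.53). Its main transcript stood at 36.9 and 32.1, and another that was at 9.76 under si-NC was listed at 0 under si-v. KIF23, the motor of centralspindlin, stood at 67.3 and 52.3 FPKM (-0.36), and KIF20B, also a cytokinesis motor, at 72.8 and 57.7 (-0.33). Once the trend with GC content and length is taken out, the ratio was 0.02 for KIF20B and -0.27 for KIF11.

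Other mitotic kinesins act at microtubule ends or on chromosome arms. KIF18A, which limits chromosome oscillation at the metaphase plate, stood at 19.0 FPKM under si-NC and 14.9 under si-v (log2 -0.34), and its paralogue KIF18B at 34.0 and 28.3 (-0.26). The microtubule depolymerase KIF2C was the most abundant mitotic kinesin, at 80.5 and 75.0 (-0.10). The chromokinesins were close to level, KIF22 at 33.2 and 30.6 (-0.11) and KIF4A at 52.6 and 51.6 (-0.03), and both counting intervals included no change. After removal of the trend of log2 ratios with GC content and length, KIF18A was at -0.10. By that reading 8 of the 11 were lower and the median was -0.22. With transcripts near 0 in 1 library left out the median was -0.20, also with 8 of 11 lower. Transcripts are left out there by their difference between the libraries, so that reading cannot show the direction of the class.

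Outside the prefixes, all 11 listed genes of the list of other mitotic motors and spindle proteins were lower under si-v, with a median log2 ratio of -0.22. At 1.5-fold were 2 of them: the kinetochore kinesin CENPE, at 40.4 FPKM under si-NC and 23.0 under si-v (-0.79, or -0.23 from its most abundant transcript), and ASPM, a spindle pole protein, at 63.6 and 31.3 (-1.001). The minus-end kinesin KIFC1 stood at 86.6 and 80.1 (-0.11). The common direction holds for summed FPKM only. On fragments per gene PRC1 was at 0.13 and NUMA1 at 0.06, and the other genes of the list stayed lower. By the most abundant transcript PRC1, NUMA1, CKAP5 and CKAP2 were higher, at 0.36, 0.10, 0.14 and 0.02, and the others lower.

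Transport kinesins showed no common direction, with 5 of the 8 genes past the filter higher and 3 lower and a median log2 ratio of 0.05. KIF5B, the heavy chain of conventional kinesin, was by far the most abundant motor of the class, at 179 FPKM under si-NC and 136 under si-v (-0.39, counting interval -0.43 to -0.35). The KIF5B ratio was -0.15 once the trend with GC content and length is taken out. KIF1C, which carries secretory vesicles and integrins, lay the other way at 44.3 and 74.5 (0.74, interval 0.70 to 0.82), and its ratio was 0.67 or more under every scaling, pseudocount and transcript choice tried. Summed over the 11 listed genes of the class FPKM was 291 and 278, and without KIF5B 112 and 142. Of these last sums KIF1C alone held 44.3 and 74.5, so they do not show a rise of the remaining genes.

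The heterotrimeric kinesin of cilia and endosomes is built from KIF3A paired with KIF3B or KIF3C. KIF3A stood at 15.6 FPKM under si-NC and 9.68 under si-v (log2 -0.64), its partner KIF3B at 15.8 and 16.8 (0.08). For KIF3A the ratio was -0.42 once the trend with GC content and length is taken out, inside 1.5-fold. KIF3C stood at 8.90 and 12.3 (0.42), as a sum of a transcript that was higher, from 3.81 to 10.5, and a shorter one that was lower, from 5.09 to 1.83. On fragments per gene the log2 ratio of KIF3C was 0.73, past 1.5-fold. The remaining transport motors were level: KIF1B, a carrier of mitochondria and vesicle precursors, at 9.45 and 9.11, KIF13A, an endosome motor, at 16.1 and 17.2, and KIF13B at 1.91 and 1.94.

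**Figure D2:**
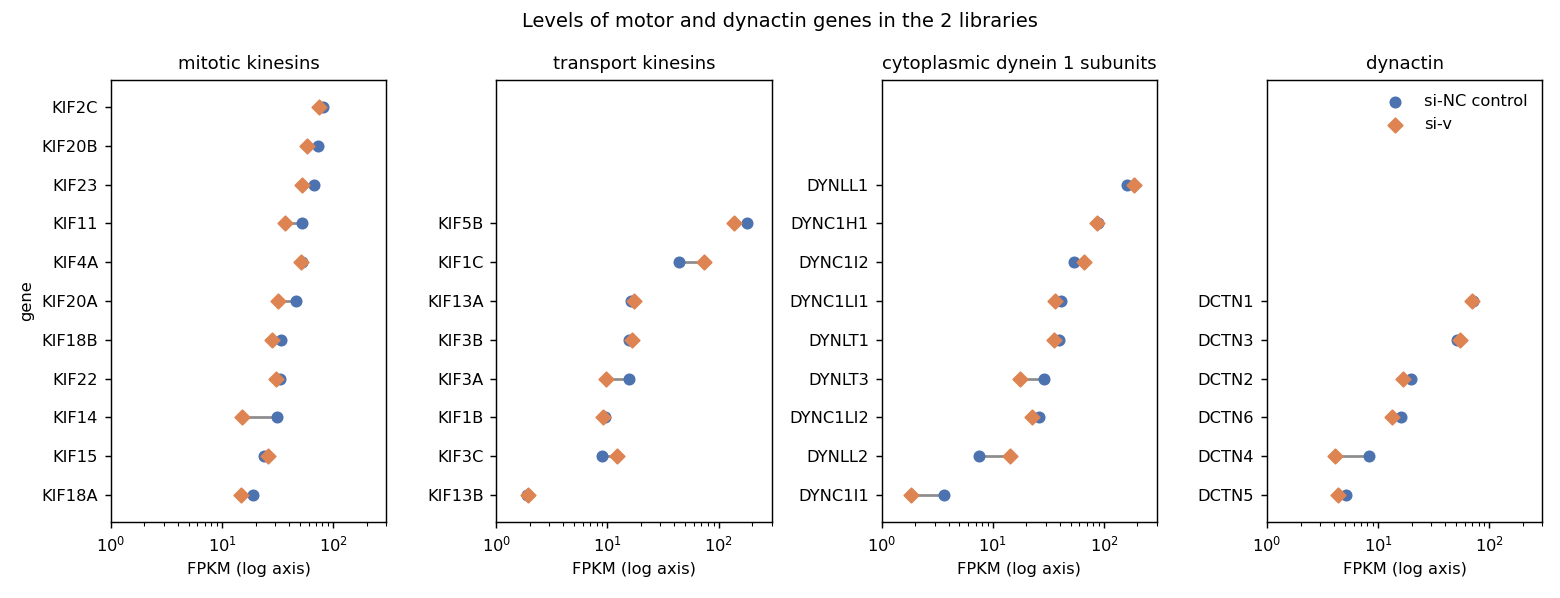
FPKM (log axis) of each mitotic kinesin, transport kinesin, dynein 1 and dynactin gene past the filter in the control (circles) and si-v (diamonds) libraries, 1 library each, with a line joining the 2 values of a gene. The diamond lies left of the circle for 10 of 11 mitotic kinesins, whereas KIF1C and DYNLL2 lie clearly to the right.

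Between mitotic and transport kinesins the medians differed by -0.38 on the log2 scale. The difference was -0.37 once the trend with GC content and length is taken out. It was -0.10 by the most abundant transcript of each gene, where the mitotic median was -0.20 and the transport median -0.10. The classes overlapped: KIF3A and KIF5B lay among the lower mitotic genes, and KIF15 above most transport genes. Median GC content of the transcripts was 42.2% in the mitotic and 47.4% in the transport class. The part of GC content in the difference was measured only through the trend removal above.

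Of the other kinesins past the filter, 3 of 6 were higher. KIF7, the ciliary regulator of Hedgehog signalling, stood at 5.60 FPKM under si-NC and 10.1 under si-v (log2 0.75), and KIF9, a kinesin of motile cilia, at 2.37 and 4.83 (0.79). The KIF9 values rest on about 17 and 37 fragments. KIF2A, a depolymerase of spindle poles and neurites, stood at 43.0 and 29.96 (-0.51), as its main transcript ENST00000401507.7 stood at 27.2 and 8.50 while ENST00000381103.6 stood at 6.68 and 11.96. KIF21A, which restrains microtubule growth at the cell cortex, stood at 10.1 and 8.11, and KIF27 at 9.35 and 7.70. KIF1BP stood at 45.2 and 41.5 (-0.12). The light chains that couple KIF5 motors to cargo were level for the abundant pair, KLC1 at 45.8 and 40.6 (-0.17) and KLC2 at 45.0 and 51.1 (0.18). KLC4 stood at 3.26 and 5.10 (0.52), on about 87 and 108 fragments. On fragments per gene its log2 ratio was 0.16, and its counting interval, -0.22 to 0.62, included no change.

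**Figure D3:**
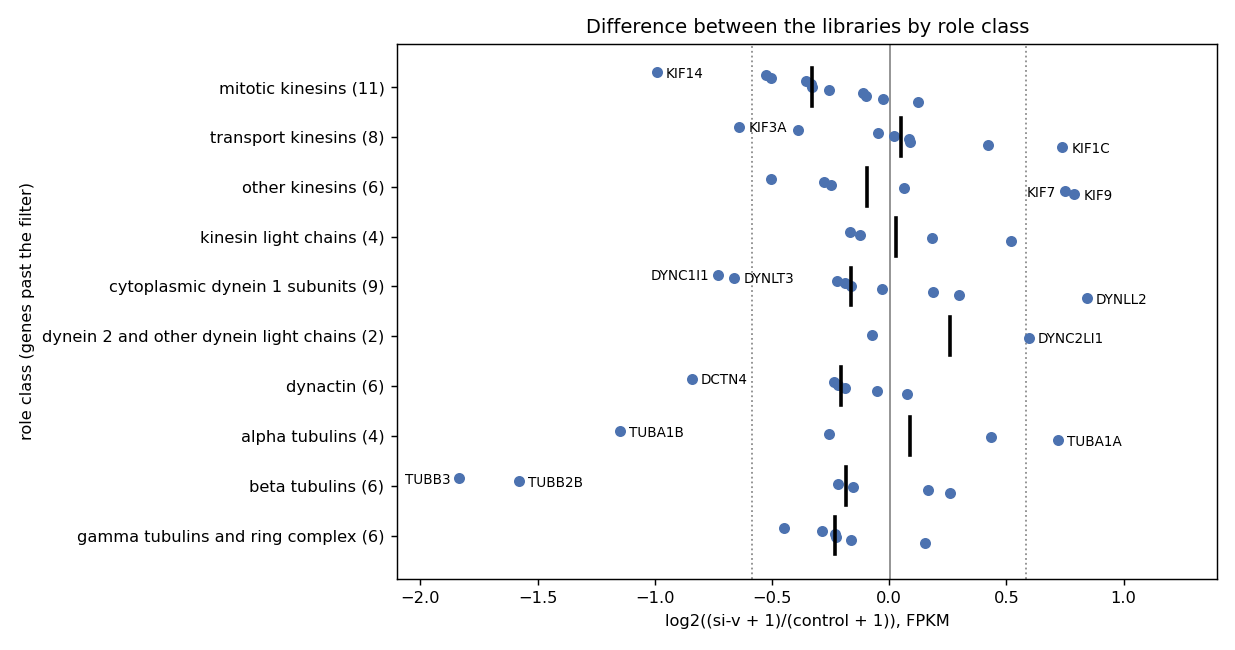
Log2 ratio of FPKM + 1, si-v over control, for each member past the filter (points) by role class, with the class median (black bar), the median of all genes (grey line) and the 1.5-fold marks (dotted). The mitotic median is -0.33 and the transport median 0.05, and the lowest points are TUBB3, TUBB2B and TUBA1B.

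Cytoplasmic dynein 1 was level in its motor subunit and mixed in its light chains. DYNC1H1, the heavy chain, stood at 88.5 FPKM under si-NC and 86.7 under si-v (log2 -0.03). The class had 6 of 9 genes lower and a median of -0.17. The intermediate chain DYNC1I2 stood at 53.5 and 66.1 (0.30), while the mostly neuronal DYNC1I1 was low at 3.67 and 1.82 (-0.73). The cargo-binding light intermediate chains were close, DYNC1LI1 at 41.4 and 36.2 (-0.19) and DYNC1LI2 at 26.3 and 22.4 (-0.22).

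Within each pair of paralogous light chains the ratios had the same sign and differed in size. Of the LC8 pair, DYNLL1 was abundant at 162 FPKM under si-NC and 185 under si-v (log2 0.19), and DYNLL2 stood at 7.48 and 14.2 (0.84, counting interval 0.78 to 1.07). The DYNLL2 ratio was 0.62 or more in every setting that bears on single genes. Of the Tctex pair, DYNLT1 stood at 39.6 and 35.2 (-0.17) and DYNLT3 at 28.6 and 17.7 (-0.66, or -0.43 once the trend with GC content and length is taken out). Of ciliary dynein 2, DYNC2H1 stood at 1.998 and 1.85 and DYNC2LI1 at 3.48 and 5.77 (0.60), the latter on about 50 and 88 fragments.

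Of the dynactin genes 5 of 6 were lower under si-v, with a median log2 ratio of -0.20. DCTN1, the large subunit that binds microtubules and dynein, stood at 71.7 FPKM under si-NC and 69.1 under si-v (-0.05). DCTN2 stood at 19.8 and 16.9 (-0.22) and DCTN3 at 51.1 and 53.9 (0.08); both belong to the shoulder of the complex. Of the pointed-end subunits, DCTN4 stood at 8.18 and 4.12 (-0.84, counting interval -1.32 to -0.81), DCTN5 at 5.10 and 4.35 (-0.19) and DCTN6 at 16.0 and 13.4 (-0.24). Summed FPKM hides a change of transcripts in DCTN5, whose long transcript ENST00000300087.6 stood at 3.80 and 0.985 while short ones were higher, so that on fragments per gene its log2 ratio was -1.49.

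The actin-related filament of dynactin lies outside the prefixes, in the list of dynein and kinesin cofactors. ACTR1A, its main subunit, stood at 55.1 FPKM under si-NC and 21.0 under si-v (log2 -1.35), its paralogue ACTR1B at 20.7 and 28.1 (0.42), and the pointed-end gene ACTR10 at 6.01 and 2.10 (-1.18). These genes were named for their values, so no count is drawn over them and the dynactin members together. Of all 20 listed cofactors past the filter, 11 were higher and 9 lower, with a median of 0.07. The adaptor gene BICD2, which links dynein to vesicles, stood at 14.9 and 28.7 (0.91) and PLEKHM2, which links kinesin to lysosomes, at 10.4 and 16.4 (0.62).

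The 3 members at 2-fold were tubulin genes. Several tubulin genes are near-identical, so their reads may have been divided among copies by the authors' counting, and their single values are uncertain. Coding sequences of TUBA1A and TUBA1B were 97.2% identical, those of TUBA1B and TUBA1C 96.8%, and those of TUBB2A and TUBB2B 98.1%, against 84.4% for TUBB and TUBB4B and 81.7% for TUBB and TUBB3 (GENCODE release 29 transcripts). Of the 50-base windows in the most abundant TUBA1A transcript 57.5% also occurred in transcripts of other genes, as did 62.7% in TUBA1B, 25.1% in TUBA1C, 52.2% in TUBB2B and 18.2% in TUBB. Over the members that are not alpha or beta tubulins the median of this share was 0, but it reached 71.2% in KLC1, 40.4% in DYNC1I2, 29.9% in TUBG1, 29.6% in DCTN5 and in KIF27 and 27.0% in TUBG2, whose values carry the same uncertainty. The last 90 coding bases of 3 beta tubulin genes, stop codon included, are shown because they encode the acidic tail that sets the isotypes apart. Capitals mark bases that differ from TUBB or have no partner in it, 18 in TUBB4B and 37 in TUBB3.
TUBB: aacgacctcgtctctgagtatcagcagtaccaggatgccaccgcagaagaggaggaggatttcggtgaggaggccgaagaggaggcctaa
TUBB4B: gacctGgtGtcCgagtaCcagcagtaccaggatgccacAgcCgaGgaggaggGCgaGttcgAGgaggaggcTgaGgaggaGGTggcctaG
TUBB3: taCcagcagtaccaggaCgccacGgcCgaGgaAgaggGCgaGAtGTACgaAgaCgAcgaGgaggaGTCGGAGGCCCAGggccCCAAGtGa

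Alpha tubulin genes differed in opposite directions. TUBA1B, the ubiquitous isotype on chromosome 12, stood at 165 FPKM under si-NC and 73.8 under si-v (log2 -1.15), and its neighbour TUBA1A, the isotype prominent in developing neurons, at 39.7 and 66.0 (0.72). Both differed by 1.5-fold or more in every setting that bears on single genes. TUBA1C, on the same chromosome, stood at 113 and 94.1 (-0.26), and TUBA4A at 24.9 and 33.9 (0.43). The share of TUBA1B in the summed alpha tubulin went from 48.1% to 27.6%, and that of TUBA1A from 11.6% to 24.6%. Summed over TUBA1A, TUBA1B and TUBA1C, which removes any exchange of reads among these 3 genes, the values were 317 and 234 FPKM (-0.44, counting interval -0.50 to -0.40).

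Beta tubulin was nearly level as a whole, at 828 FPKM under si-NC and 805 under si-v (log2 -0.04). TUBB stood at 445 and 400 (-0.15), and TUBB4B at 297 and 333 (0.17, or -0.02 once the trend with GC content and length is taken out). TUBB6 stood at 35.1 and 30.02 (-0.22) and TUBB2A at 31.4 and 37.8 (0.26). TUBB3, the neuronal isotype that many carcinoma lines also express, stood at 17.5 and 4.17 (-1.83), the lowest member ratio with a pseudocount of 1. With a pseudocount of 0.1 TUBB2B was lower, at -3.85 against -2.04. The main TUBB3 transcript ENST00000315491.11 stood at 12.7 and 0.379, and a second TUBB3 transcript at 4.25 and 1.41. Of the 50-base windows of the main TUBB3 transcript 89.4% also occur in AC092143.1, an annotated gene that overlaps TUBB3. Reads there cannot be told apart by sequence. TUBB2B stood at 2.15 and 0.0561, on about 48 fragments and 1, which gives a log2 ratio of -5.26 on fragments alone (counting interval -11.03 to -3.15). TUBB2A and TUBB2B together stood at 33.6 and 37.8.

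**Figure D4:**
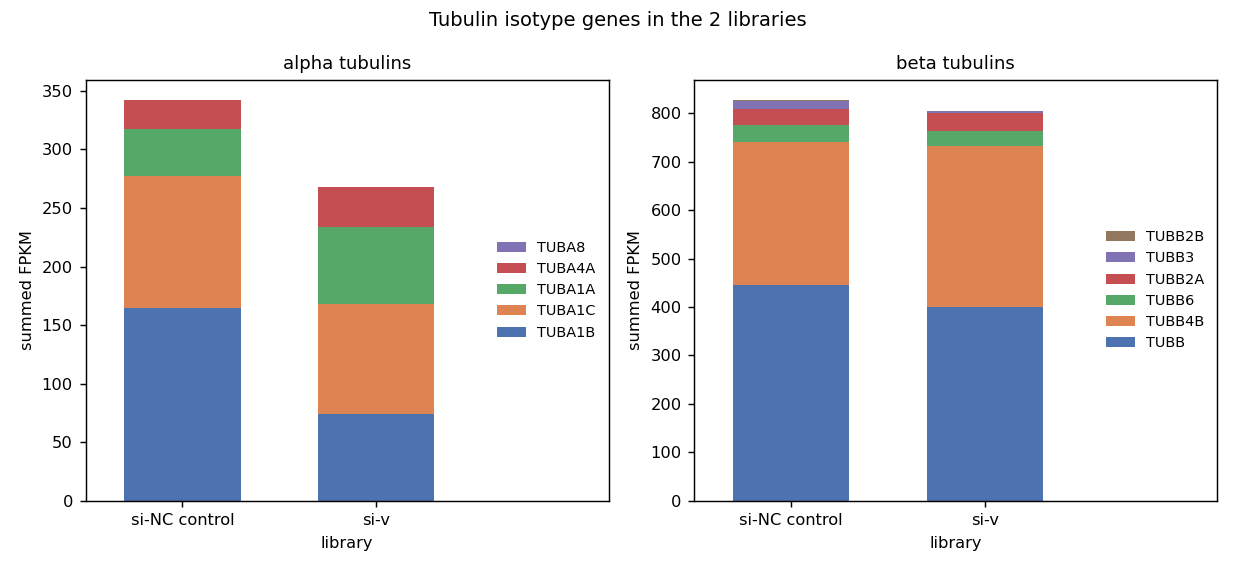
Summed FPKM of alpha (left) and beta (right) tubulin genes under si-NC and si-v libraries, 1 library each, stacked by gene. The alpha total stands at 342 and 268 with a smaller TUBA1B part under si-v, and the beta total at 828 and 805.

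Gamma tubulin and its ring complex, which nucleate microtubules at the centrosome, were lower under si-v for 5 of the 6 genes past the filter, none by 1.5-fold, with a median log2 ratio of -0.23. TUBG1, the main gamma tubulin gene, stood at 135 FPKM under si-NC and 110 under si-v (-0.29), and TUBG2 at 16.5 and 18.4 (0.15). Of the ring scaffold genes, TUBGCP2 stood at 25.1 and 21.3 (-0.23), TUBGCP4 at 7.29 and 6.05 (-0.23) and TUBGCP5 at 6.51 and 5.71 (-0.16). TUBGCP3 stood at 32.3 and 23.4 (-0.45). Of its 3 transcripts, 1 stood at 16.5 under si-NC and was listed at 0 under si-v, and another at 0.801 and 9.70. With transcripts near 0 in 1 library left out, 2 of the 6 genes were lower and 4 higher. The log2 ratios were then 0.15 for TUBGCP2, 0.54 for TUBGCP3 and 0.705 for TUBGCP5. That setting picks transcripts by their difference between the libraries, so it cannot show the direction of a gene. On fragments per gene, with all transcripts kept, these 3 genes stayed lower, at -0.23, -0.42 and -0.07. Once the trend with GC content and length is taken out, that of TUBG2 was -0.02.

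Transcripts that were under 0.1 FPKM in 1 library and at 1 or more in the other recurred among the members. They occurred in 20 of the 63 genes past the filter (31.7%), against 16.0% of all genes past it, and made up 21 of the 163 member transcripts that reached 1 FPKM (12.9%, against 8.62% of all such transcripts). No test was made of this difference. How reads were divided among transcripts was not tested. Values of single transcripts depend on it, as do gene sums where transcripts differ much in length, such as that of DCTN5. On fragments per gene the log2 ratios of KIF14, KIF20A and TUBGCP3 were -0.96, -0.49 and -0.42, close to those of their sums.

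**Figure D5:**
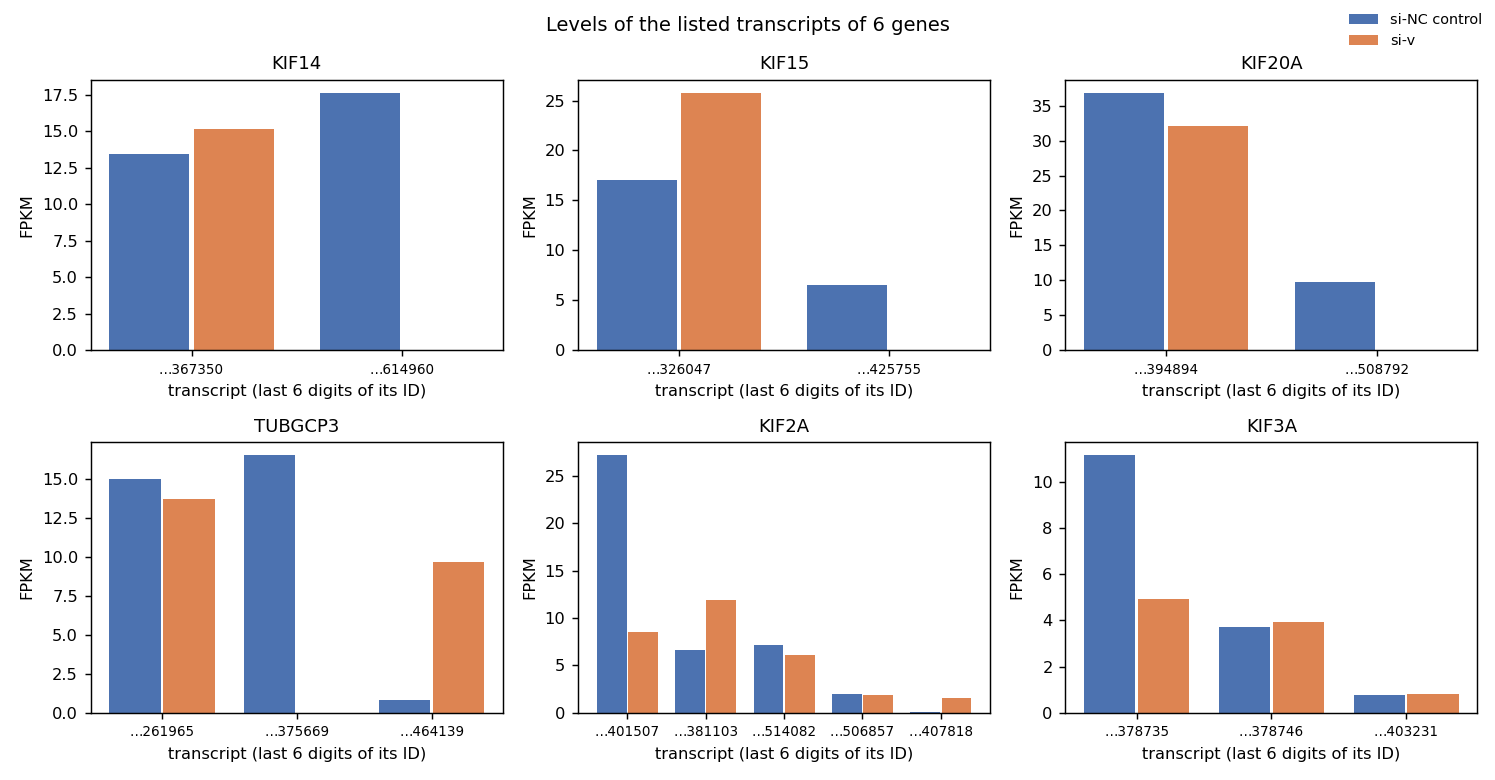
FPKM of the listed transcripts of 6 members that reached 0.5 in at least 1 library, control and si-v side by side, each labelled with the last digits of its ID. KIF15, KIF20A and TUBGCP3 each have a transcript present under si-NC and listed at 0 under si-v, and KIF14 has one at 17.6 and 0.0016.

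Genes of tubulin folding, tubulin modification and microtubule binding outside the prefixes showed no common direction, with 14 of 29 past the filter higher, 15 lower and a median log2 ratio of -0.01. ATAT1, the alpha tubulin acetyltransferase, stood at 6.25 FPKM under si-NC and 2.42 under si-v (-1.09), and TTLL12, of the tubulin tyrosine ligase-like family, at 17.4 and 28.7 (0.69). No other gene of that list differed by 1.5-fold.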

How the data were processed

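The deposited table gives 39605 transcripts with a value in each of 2 libraries. Its header names no unit; the values were read as FPKM, made by the authors with cutadapt, HISAT2 2.0.5 and StringTie on hg19, per the submitters' processing notes. Settings, strand and annotation: not given in the sources used here. Antisense and overlapping genes could therefore share reads. Symbols, lengths and sequences come from GENCODE release 29, a GRCh38 annotation, through transcript IDs stripped of their version (99.5% matched).

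FPKM was summed per gene, and log2 ratios used a pseudocount of 1, which understates differences of low genes. Genes of at least 1 FPKM in either library were kept (11046). The worth of 1 fragment was the peak of value times length in genes with a single listed transcript; 45.1% and 42.0% of 102 and 88 values near it lay within 5%, so fragments are approximate. Promoters are RefSeq windows matched by symbol, and coding sequences were aligned globally with Biopython 1.88. The log2 ratio, the 1.5-fold count and the counting interval were tested on simulated gene counts with a fixed number of fragments per FPKM. The other steps were not tested in that way.

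Members and lists were chosen with earlier results of these data known, so no count is independent support. Values are given for members of at least 5 FPKM in either library, for those at 1.5-fold, and for class extremes. Genes outside the prefixes are named at 1.5-fold, besides KIFC1 and CENPE. ACTR1B, PRC1, NUMA1, CKAP5 and CKAP2 were chosen after their values were seen. Alternatives were 2 pseudocounts, 2 filters, 2 scalings, 2 ways to read a gene, removal of a quadratic GC content and length trend, a 2-fold mark and, added after the data were seen, leaving out transcripts near 0 in 1 library.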

Additional observations from a re-analysis of the deposited data

How the results depend on the processing

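The mitotic median was below 0 in every alternative, from -0.40 to -0.20, and the mitotic minus transport difference ran from -0.41 to -0.10. The transport median ran from -0.10 to 0.14. With a pseudocount of 5 the members at 1.5-fold numbered 3 higher and 3 lower. That mark then took 7.64% of all genes, against 18.7% with a pseudocount of 1. At 2-fold, with a pseudocount of 1, the members numbered 0 higher and 3 lower, and 4.86% of all genes reached that mark. Without a filter the alpha tubulin median was -0.26, as TUBA8 then entered. Read from the most abundant transcript, the other kinesins had a median of 0.24. With transcripts near 0 in 1 library left out, the median was 0.25 for the other kinesins, 0.57 for kinesin light chains and 0.15 for gamma tubulin and ring complex genes. The transcripts left out are picked by their difference between the libraries, so these medians cannot show a direction. KIF14 reversed to 0.16 in that setting and by its most abundant transcript, and was at -0.96 on fragments per gene. Of the 14 members at 1.5-fold, 13 kept their sign in all settings that gave them a value, and 5 (KIF1C, DYNLL2, TUBA1A, TUBA1B and TUBB3) stayed at 1.5-fold in each. Of all 63 members past the filter 43 kept their sign, so the direction of the others depends on the setting. Leaving out a replicate was not possible with 1 library per group. No paired analysis was possible because each group holds 1 library and the labels give no replicate numbers. Low fragment numbers limit TUBB2B, KIF9, DYNC1I1 and DYNC2LI1.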
